A study of Mus musculus with 12 samples.

Results

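Transcripts of 10 genes of cytokine reception and JAK-STAT signalling were followed across sorted islet cells: the interferon receptor chains Ifnar1, Ifnar2, Ifngr1 and Ifngr2, the interleukin receptor chains Il1r1 and Il6ra, the Janus kinases Jak1 and Jak2, and the suppressors of cytokine signalling Socs1 and Socs3. They were chosen by name, and each symbol matched 1 of the 52962 gene identifiers in the count table. All 10 were among the 15598 genes that passed the filter on low counts.

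RNA had been sequenced in β-cells and non-β-cells of islets of NOD mice, all females of this diabetes-prone strain, aged 4 or 8 weeks. The 12 libraries form 4 groups of 3 replicates: 4-week β-cells, 8-week β-cells, 4-week non-β-cells and 8-week non-β-cells. All 4 groups share the NOD genotype, no treatment is named, and no diabetes-resistant strain was analysed here. Per the study's methods, islets were cultured overnight and dispersed, and cells were sorted on endogenous fluorescence with CD45-positive cells removed, so the non-β fraction can hold any other endocrine, vascular, stromal or exocrine cell. The comparison of ages spans the time in which, per the study, leukocytes come to infiltrate the islets of this strain. Infiltration cannot be told apart here from anything else that differs between the ages. Sorted samples were pools of mice according to the study (the labels give no pooling), and p-values measure only the spread between these samples.

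Total counts per library lay between 13754913 and 27040436, and counts for the 10 transcripts lay between 12 (Socs1) and 16310 (Il1r1) per library. Levels are given as CPM, a count relative to the total of its library, scaled between libraries with TMM factors (trimmed mean of M-values), for replicates 1, 2 and 3 in turn. Summed β-cell markers were at 46700 to 113000 CPM in the β fraction and at 2880 to 5870 CPM in the non-β fraction, and summed alpha-cell markers at 1520 to 9410 CPM and 106000 to 136000 CPM. Ptprc, which encodes CD45, lay between 0 and 0.789 CPM, and Nkg7 and Ncr1 had no counts in any library. Of 18 leukocyte markers listed, 2 were high enough to be tested. Cd68 lay at 47.5 to 74.1 CPM in the β fraction and 7.68 to 18.9 CPM in the non-β fraction, and Cd79a at 2.89 to 3.77 CPM and 0 to 0.996 CPM. The 4-week libraries numbered 3 stood apart in both fractions. Deviations were taken on the log2 scale from the mean of the other libraries of the group. Transcripts of at least 5000 exon bases were low (median deviation -0.26 for β-cells and -0.20 for non-β-cells) and those of at most 2000 exon bases high (0.50 and 0.32). In sorted bulk samples, fewer cells of a type and less RNA per cell cannot be told apart.

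Type I interferons bind a receptor of IFNAR1 and IFNAR2, interferon-γ binds IFNGR1 with IFNGR2, interleukin-1 binds IL1R1 with the accessory chain IL1RAP, and interleukin-6 binds IL6RA, which then engages the shared signal transducer gp130. The interferon and gp130 receptors have no kinase domain of their own and signal through the associated Janus kinases JAK1, JAK2 and TYK2, which phosphorylate STAT transcription factors, whereas IL1R1 signals through MYD88 and IRAK kinases. SOCS1 and SOCS3 are induced by STATs and block the kinases or receptors in a negative feedback, and this system is studied in β-cells because interferon-γ, interleukin-1 and tumour necrosis factor are toxic to them in culture.

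Ifnar2 (91372783 to 91405589), Ifnar1 (91485238 to 91507441) and Ifngr2 (91547072 to 91565623) lie close together on chromosome 16, all on the plus strand of GRCm38 in the GENCODE M21 annotation. Ifngr1 lies apart from its partner, on chromosome 10 (19591949 to 19610229). Promoter windows of 300 bases, 250 before and 50 after the RefSeq start (GRCm38.p6), were read for all 10 genes, 11 windows in all because Il1r1 has 2. A total of 4 are shown, those of the SOCS genes, which are the feedback genes of the pathway, and those of the interferon-γ receptor chains, which moved together. Capitals mark a match on either strand to TTCNNNGAA, a spacing that STAT dimers bind, or to the core of the interferon-stimulated response element (ISRE), searched as GAAA, 2 bases of any kind and GAAA again, which interferon regulatory factors bind. Other spacings between TTC and GAA were not searched.

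Socs3 (chr11:117969317-117969616, minus strand): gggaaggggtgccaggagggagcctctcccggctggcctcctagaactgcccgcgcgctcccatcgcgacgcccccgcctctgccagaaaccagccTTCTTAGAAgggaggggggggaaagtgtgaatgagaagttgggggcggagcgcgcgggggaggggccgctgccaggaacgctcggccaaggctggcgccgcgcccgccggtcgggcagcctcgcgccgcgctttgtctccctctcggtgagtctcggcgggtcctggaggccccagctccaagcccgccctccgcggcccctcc
Socs1 (chr16:10785487-10785786, minus strand): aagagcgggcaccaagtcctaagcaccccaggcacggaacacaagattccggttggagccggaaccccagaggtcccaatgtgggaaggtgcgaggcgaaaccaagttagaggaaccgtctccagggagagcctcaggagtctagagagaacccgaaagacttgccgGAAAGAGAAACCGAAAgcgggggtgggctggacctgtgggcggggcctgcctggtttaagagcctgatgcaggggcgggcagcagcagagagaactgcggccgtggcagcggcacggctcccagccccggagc
Ifngr1 (chr10:19591699-19591998, plus strand): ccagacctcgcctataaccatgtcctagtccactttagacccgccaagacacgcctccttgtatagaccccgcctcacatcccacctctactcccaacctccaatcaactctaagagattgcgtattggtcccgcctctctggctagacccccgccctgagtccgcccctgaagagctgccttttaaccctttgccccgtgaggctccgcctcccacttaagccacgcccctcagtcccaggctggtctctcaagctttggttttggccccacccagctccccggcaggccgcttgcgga
Ifngr2 (chr16:91546809-91547108, plus strand): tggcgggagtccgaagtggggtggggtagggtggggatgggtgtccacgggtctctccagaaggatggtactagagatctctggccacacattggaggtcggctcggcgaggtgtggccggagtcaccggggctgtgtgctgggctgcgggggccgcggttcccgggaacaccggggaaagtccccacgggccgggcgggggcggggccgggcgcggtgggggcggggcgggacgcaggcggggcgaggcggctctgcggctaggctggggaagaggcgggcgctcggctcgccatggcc

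The Socs3 window holds 1 TTCNNNGAA match, beginning 154 bases before the RefSeq start, which itself lies 180 bases upstream of the start of the coding GENCODE transcript. The Socs1 window holds 2 overlapping ISRE-core matches, beginning 83 and 77 bases before the start. Neither motif was found in the Ifngr1 and Ifngr2 windows. Of all 32851 windows of this length, 8.3% held TTCNNNGAA and 3.44% held the ISRE core, against 3 of the 11 windows (Ifnar1, Ifnar2 and Socs3) and 1 of the 11 (Socs1). A match describes the letters and is not a measured binding site.

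Socs3 was the single transcript of the 10 that was called with age in β-cells. It rose 2.87-fold there, where 17.9% of all tested genes were called. In non-β-cells Ifngr1, Ifngr2, Il1r1, Jak1 and Socs3 rose, by log2 changes from 0.48 to 0.83, where 16.4% of all tested genes were called. Both chains of the interferon-γ receptor exceeded in 4-week β-cells the level of 4-week non-β-cells, and their age changes differed between the fractions. Il1r1 and Jak1 were higher in β-cells at both ages, and Socs3 was lower in β-cells at both ages. Differences are log2 values from limma-voom, fitted to all 12 libraries with p-values adjusted by Benjamini-Hochberg over the 15598 tested genes, and a transcript was called at an adjusted p under 0.05.

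**Figure D1:**
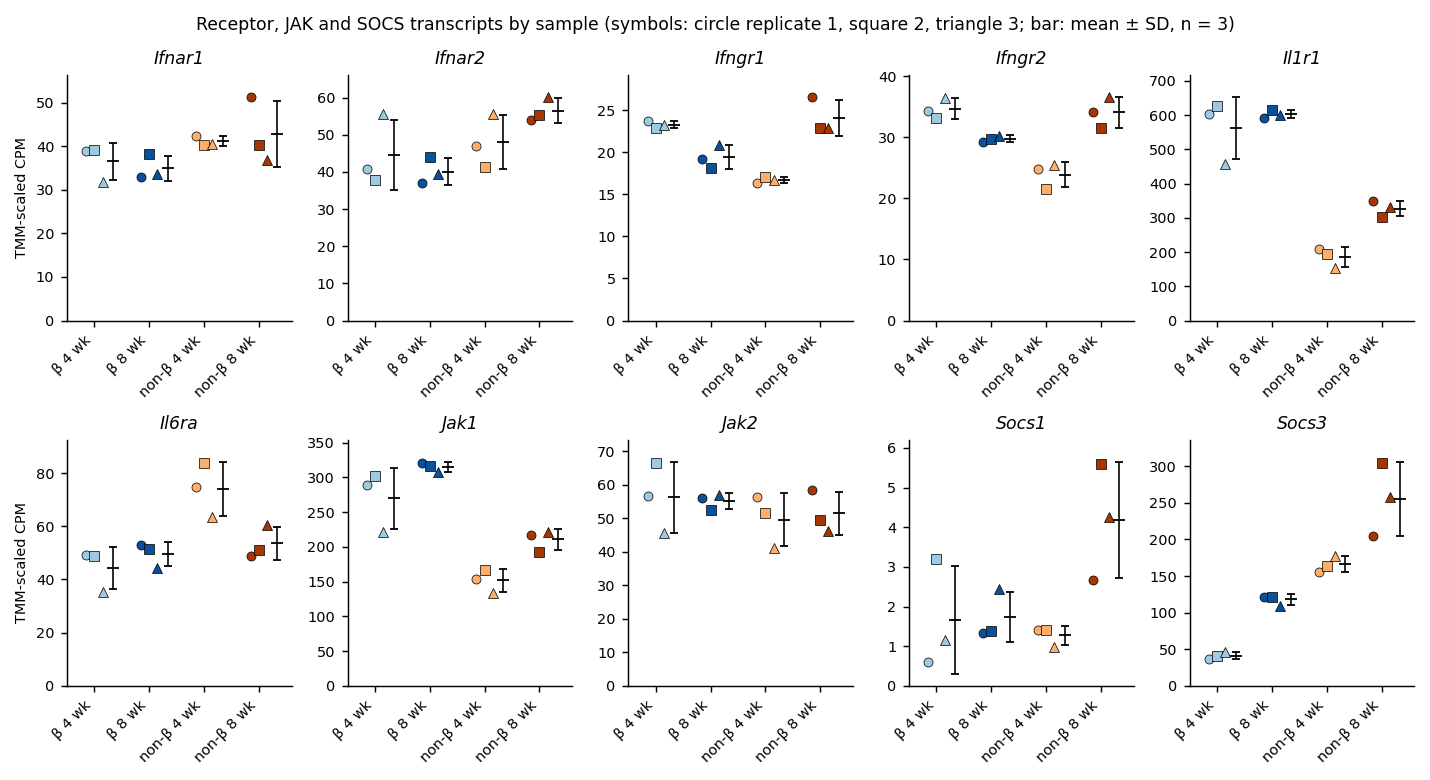
TMM-scaled CPM of the 10 transcripts in each of the 12 libraries, with one panel per transcript, a linear axis from 0 and symbols for the replicate number; bars give the mean ± SD of 3 libraries. Socs3 lay at 36.1 to 46.5 CPM in 4-week β-cells and at 109 to 122 CPM in 8-week β-cells, and the Ifngr1 and Ifngr2 panels show 8-week β-cells below 4-week β-cells and 8-week non-β-cells above 4-week non-β-cells.

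Divided by the length of their exons in kilobases, the transcripts spanned a wide range of levels in every group. Il1r1 was highest in β-cells, with 88.4 ± 14.3 CPM per kilobase (SD, n = 3) at 4 weeks and 94.6 ± 1.85 at 8 weeks. Socs3 was highest in non-β-cells, with 57.4 ± 3.79 and 88.3 ± 17.5 CPM per kilobase. Socs1 was lowest in all 4 groups, between 0.438 and 1.44 CPM per kilobase.

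Below Il1r1 in 8-week β-cells stood Jak1 at 43.5 ± 0.943 CPM per kilobase and Socs3 at 40.7 ± 2.62, whose ranges of mean ± SD overlapped. Ifnar2 at 12.1 ± 1.08 and Jak2 at 11.0 ± 0.498 CPM per kilobase likewise overlapped, and so did Ifnar1 at 5.88 ± 0.480 and Il6ra at 5.74 ± 0.529. Ifngr2 at 7.91 ± 0.139 and Ifngr1 at 6.81 ± 0.497 CPM per kilobase lay between these pairs. In 4-week β-cells Socs3, at 14.2 ± 1.81 CPM per kilobase, came next after Jak1 and overlapped with Ifnar2, at 13.4 ± 2.85.

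**Figure D2:**
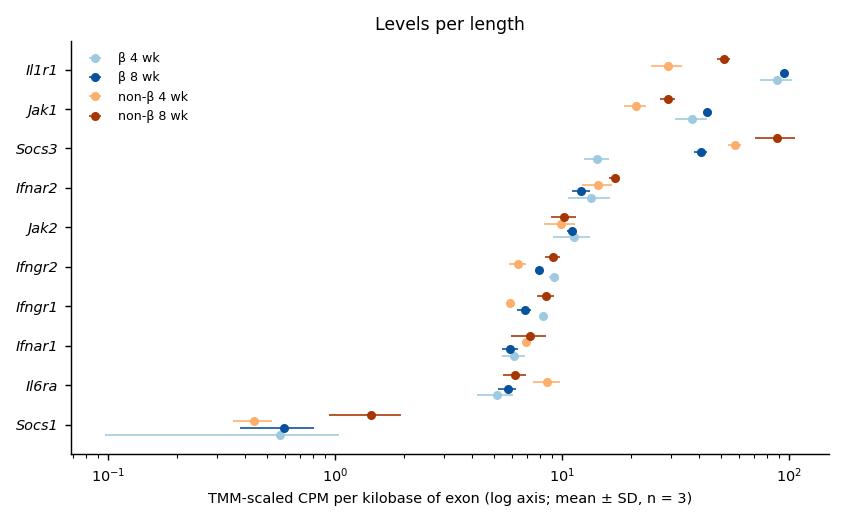
TMM-scaled CPM per kilobase of exon (log axis) for the 10 transcripts, as mean ± SD of 3 libraries in each of the 4 groups. Il1r1 had the highest level in β-cells at both ages and Socs3 in non-β-cells, and Socs1 lay between 0.438 and 1.44 in all groups.

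Per kilobase, the chains of a receptor had unequal transcript levels except those of the interferon-γ receptor, whose ratio was near 1. Ifngr2 stood at 1.07 to 1.16 times Ifngr1 in the 4 groups, a ratio that ranged from 0.953 to 1.24 over the libraries. Ifnar2 stood at 2.05 to 2.42 times Ifnar1, a ratio that ranged from 1.72 to 3.13 over the libraries, both in 4-week β-cells. Lengths count all annotated exons of a gene, and the transcripts present can be shorter. Il1r1 exceeded Il1rap, the accessory chain it needs for signalling, 124-fold and 106-fold in β-cells and 38.2-fold and 58.4-fold in non-β-cells, at 4 and 8 weeks. Il6st, which encodes gp130, exceeded Il6ra between 2.82-fold and 4.61-fold, and Jak1 exceeded Jak2 between 2.15-fold and 3.98-fold and Tyk2 between 4.27-fold and 9.09-fold. Il1rap showed no called difference in any comparison, with group means from 8.49 ± 2.83 to 10.2 ± 0.684 CPM.

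Ifngr1 (ENSMUSG00000020009), the ligand-binding chain of the interferon-γ receptor, measured 23.7, 22.9 and 23.3 CPM in 4-week β-cells and 19.2, 18.1 and 20.9 CPM in those of 8 weeks. In non-β-cells it measured 16.4, 17.1 and 16.7 CPM at 4 weeks and 26.6, 22.9 and 22.9 CPM at 8 weeks. The ranges did not overlap in any of the 4 comparisons: the 8-week libraries were the lower ones in β-cells and the higher ones in non-β-cells. Ifngr1 rose by a log2 change of 0.54 (SE 0.12, adjusted p 0.00689) in non-β-cells, and in β-cells its change of -0.27 (SE 0.11) did not pass the threshold (adjusted p 0.124). Sample quality weights brought the β-cell change past it, at -0.28 (adjusted p 0.0209).

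Ifngr2 (ENSMUSG00000022965), the chain that recruits JAK2, measured 34.4, 33.1 and 36.5 CPM in 4-week β-cells and 29.3, 29.8 and 30.3 CPM in those of 8 weeks. Its non-β values were 24.8, 21.5 and 25.4 CPM at 4 weeks and 34.2, 31.5 and 36.6 CPM at 8 weeks. As for Ifngr1, no 2 groups compared overlapped and the ages were ordered oppositely in the fractions. The change in non-β-cells was 0.52 (SE 0.11, adjusted p 0.00596) and that in β-cells -0.22 (SE 0.11, adjusted p 0.181). In a model of the non-β libraries alone the former was 0.47, with an adjusted p of 0.0503.

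The age changes of both chains differed between the fractions. The interaction, which subtracts the log2 change of non-β-cells from that of β-cells, was -0.80 for Ifngr1 (95% interval -1.16 to -0.45, adjusted p 0.0123) and -0.73 for Ifngr2 (-1.06 to -0.40, adjusted p 0.0149). At 4 weeks β-cells exceeded non-β-cells by 0.48 for Ifngr1 (adjusted p 0.00458) and 0.53 for Ifngr2 (adjusted p 0.00148). At 8 weeks Ifngr1 was lower in β-cells, at -0.33 (adjusted p 0.0311), and Ifngr2 differed by -0.20 (adjusted p 0.144). The 8-week call of Ifngr1 was lost without β-cell replicate 1 or 2 or non-β replicate 1, with adjusted p-values up to 0.151, and when no filter on low counts was applied (adjusted p 0.0863). Both interactions kept an adjusted p under 0.05 in all 12 fits without a single library, with values up to 0.0457 for Ifngr1 and 0.0453 for Ifngr2, and they were -0.82 and -0.74 without both 4-week libraries numbered 3.

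Ifnar1 (ENSMUSG00000022967), a chain of the type I interferon receptor, stayed within a narrow span. It measured 38.8, 39.2 and 31.7 CPM in 4-week β-cells, 33.0, 38.2 and 33.6 CPM at 8 weeks, and 42.4, 40.3 and 40.5 CPM in 4-week non-β-cells. The values of non-β-cells at 8 weeks were 51.3, 40.3 and 36.8 CPM. No comparison called Ifnar1 with all libraries, and its 95% intervals for the age change ran from -0.36 to 0.24 in β-cells and from -0.24 to 0.35 in non-β-cells. At 4 weeks every β library lay below every non-β library, by -0.18 on the log2 scale (adjusted p 0.305). The difference at 8 weeks was -0.29 (adjusted p 0.1001), and -0.41 (adjusted p 0.0386) without non-β replicate 3.

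Ifnar2 (ENSMUSG00000022971), its partner chain, measured 40.7, 37.8 and 55.5 CPM in 4-week β-cells and 37.0, 44.1 and 39.4 CPM in those of 8 weeks. Non-β values were 47.0, 41.4 and 55.7 CPM at 4 weeks and 54.1, 55.2 and 60.2 CPM at 8 weeks. The libraries numbered 3 were the highest of both 4-week groups. Ifnar2 was lower in 8-week β-cells than in 8-week non-β-cells, by a log2 difference of -0.49 (SE 0.15, adjusted p 0.0165), a call lost without β-cell replicate 1 or 3 or non-β replicate 3 (adjusted p up to 0.0590). The age changes were -0.13 (adjusted p 0.599) for β-cells and 0.24 (adjusted p 0.325) for non-β-cells. Without both 4-week libraries numbered 3 they were 0.04 (adjusted p 0.842) and 0.36 (adjusted p 0.0276). Ifnar2 shares 315 exon bases with the annotated gene Gm21970 on the same strand, and how counts divide between them is not known.

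Il1r1 (ENSMUSG00000026072, chromosome 1, 40225080 to 40317257), the signalling receptor for interleukin-1, measured 602, 627 and 458 CPM in 4-week β-cells and 591, 615 and 600 CPM in those of 8 weeks. In non-β-cells it measured 210, 194 and 153 CPM at 4 weeks and 348, 302 and 332 CPM at 8 weeks. Every β library exceeded every non-β library, and the ages overlapped in β-cells but not in non-β-cells. The excess in β-cells was 1.60 on the log2 scale at 4 weeks (SE 0.14, adjusted p 1.07e-06) and 0.88 at 8 weeks (SE 0.14, adjusted p 0.000166). Il1r1 rose by 0.83 in non-β-cells with age (SE 0.14, adjusted p 0.000954), and its change in β-cells was 0.11 (95% interval -0.19 to 0.41, adjusted p 0.619).

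The difference between these age changes of Il1r1 was -0.72, with an adjusted p of 0.0523. In 8 of 10 alternative fits it passed the threshold (adjusted p from 0.000555 to 0.0883). Of the fits without libraries, it passed the threshold without β-cell replicate 3 of 4 weeks (-0.86, adjusted p 0.00584) and without both 4-week libraries numbered 3 (-0.74, adjusted p 0.00100). That β-cell library had 458 CPM against 602 and 627 in the other two.

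Il6ra (ENSMUSG00000027947, chromosome 3, 89864059 to 89913196), the interleukin-6 binding chain, had its highest level in non-β-cells at 4 weeks, with 74.9, 83.7 and 63.6 CPM. It measured 48.9, 51.2 and 60.5 CPM in 8-week non-β-cells, and 49.2, 48.9 and 35.2 CPM in 4-week β-cells. The 8-week β-cell values of 52.9, 51.5 and 44.4 CPM overlapped those of 8-week non-β-cells. Il6ra was lower in 4-week β-cells than in 4-week non-β-cells (-0.74, SE 0.15, adjusted p 0.00140), and the 8-week difference was -0.11 (adjusted p 0.577). The age change in non-β-cells was -0.46, short of the threshold at an adjusted p of 0.0535, and it passed without non-β replicate 3 of 4 weeks (-0.56, adjusted p 0.0293) and in 6 of 11 alternative fits (adjusted p from 0.00289 to 0.0739). The interaction of Il6ra was 0.63 (adjusted p 0.123), which passed in 3 of 10 alternative fits (adjusted p from 0.0168 to 0.177). Il6ra overlaps the antisense gene Gm42809 over 242 exon bases, the reads were reversely stranded per the study's methods, and whether the quantification made use of strand is not stated.

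Jak1 (ENSMUSG00000028530, chromosome 4, 101152367 to 101265282), the kinase shared by the interferon, gp130 and γ-chain receptors, measured 289, 302 and 221 CPM in 4-week β-cells and 320, 317 and 307 CPM in those of 8 weeks. Its non-β values were 154, 167 and 134 CPM and 217, 193 and 221 CPM. No groups compared overlapped, and β-cells were the higher fraction at each age. The log2 difference between the fractions was 0.82 at 4 weeks (SE 0.13, adjusted p 0.000167) and 0.58 at 8 weeks (SE 0.13, adjusted p 0.00195). Jak1 rose in non-β-cells by 0.48 (SE 0.13, adjusted p 0.0197), against 0.23 for β-cells (adjusted p 0.232). The non-β call was lost without replicate 1 or 3 of either age (adjusted p up to 0.0857) and when libraries were scaled by total counts only (0.43, adjusted p 0.0574).

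Jak2 (ENSMUSG00000024789, chromosome 19, 29251828 to 29313080), the kinase of the interferon-γ receptor, was not called in any comparison. Its group means were 56.2 ± 10.5 and 55.1 ± 2.50 CPM in β-cells and 49.6 ± 7.80 and 51.4 ± 6.37 CPM in non-β-cells, at 4 and 8 weeks. The 95% intervals of its age changes were -0.35 to 0.32 in β-cells and -0.29 to 0.40 in non-β-cells.

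Socs3 (ENSMUSG00000053113, chromosome 11, 117966079 to 117970047), a STAT3-induced inhibitor of gp130 signalling, measured 36.1, 40.9 and 46.5 CPM in 4-week β-cells and 122, 122 and 109 CPM in those of 8 weeks. In non-β-cells it measured 156, 164 and 178 CPM at 4 weeks and 204, 305 and 258 CPM at 8 weeks. The 4 groups formed 4 separate ranges, with 4-week β-cells lowest and 8-week non-β-cells highest. The rise in β-cells was 1.52 on the log2 scale (SE 0.15, 95% interval 1.20 to 1.84, adjusted p 2.23e-05) and ran from 1.41 to 1.61 when single libraries were left out. In non-β-cells the rise was 0.60 (SE 0.14, adjusted p 0.00821), and without non-β replicate 1 of 4 weeks it was 0.53 (adjusted p 0.0518).

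Socs3 was lower in the β fraction at each age, with log2 differences of -2.01 at 4 weeks (SE 0.15, adjusted p 2.25e-07) and -1.10 at 8 weeks (SE 0.14, adjusted p 2.70e-05). Its log2 change with age was larger in β-cells, with an interaction of 0.91 (95% interval 0.48 to 1.35, adjusted p 0.0194). In 4 of the 12 fits without a single library the interaction missed the threshold, namely without β-cell replicate 1 or 2 of either age, with values from 0.82 to 0.90 and adjusted p-values up to 0.0641. Without both 4-week libraries numbered 3 it was 0.95 (adjusted p 0.0123).

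Socs1 (ENSMUSG00000038037, chromosome 16, 10782240 to 10785536), an inhibitor of the JAK kinases downstream of interferon-γ, rested on 12 to 83 counts per library. It measured 0.611, 3.21 and 1.15 CPM in 4-week β-cells, 1.34, 1.39 and 2.45 CPM at 8 weeks, and 1.42, 1.42 and 0.986 CPM in 4-week non-β-cells. In non-β-cells at 8 weeks it measured 2.68, 5.60 and 4.26 CPM, above every non-β library of 4 weeks. The change there was 1.55 (SE 0.52, adjusted p 0.0610) and the difference between the fractions at 8 weeks -1.16 (SE 0.46, adjusted p 0.0513). Both passed the threshold without non-β replicate 1 of 8 weeks, at 1.88 (adjusted p 0.0347) and -1.50 (adjusted p 0.0213). In other alternative fits the former passed in 3 of 11 (adjusted p from 0.0213 to 0.112) and the latter in 6 of 10 (adjusted p from 0.00578 to 0.0840). The change in β-cells was 0.24, with an interval from -0.9998 to 1.48 that includes differences of either sign. The 4-week β libraries held 12, 81 and 25 counts.

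**Figure D3:**
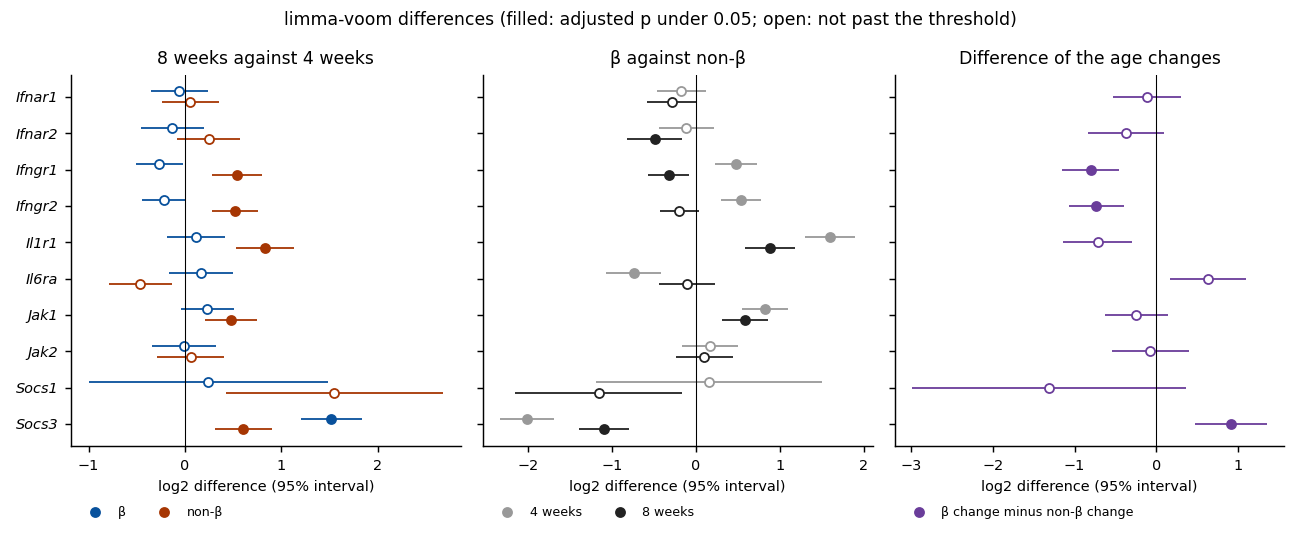
Log2 differences from limma-voom with 95% intervals for the 10 transcripts: the age comparison of each fraction on the left, β-cells against non-β-cells in the middle, and the difference of the age changes on the right; filled points have an adjusted p under 0.05. Socs3 is the filled point of β-cells, at 1.52, and Ifngr1 and Ifngr2 lie at -0.80 and -0.73 in the last panel.

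Counted over the 10 transcripts, 1 was called higher and 0 lower with age in β-cells, where 17.9% of all tested genes were called, 8.59% of all higher and 9.35% lower. In non-β-cells 5 were called higher and 0 lower, against 16.4% of all tested genes called, 11.6% higher and 4.8% lower. The median log2 change was 0.05 for β-cells and 0.50 for non-β-cells, and over all tested genes it was 0.02 and 0.01. The ages did not overlap for 4 of the 10 in β-cells, 2 in each direction, against 40.3% of all tested genes (20.7% higher, 19.6% lower). In non-β-cells they did not overlap for 7 of the 10, 6 higher and 1 lower, against 32.8% of all tested genes (19% higher, 13.8% lower). When a change of 2-fold was also required, 0 of the 10 were called in non-β-cells. Without replicate 1 of 4-week non-β-cells 3 of the 10 were called there, Jak1 and Socs3 being lost.

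Between the fractions, 4 of the 10 were higher and 2 lower in β-cells at 4 weeks, where 48.5% of all tested genes were called (24.9% higher, 23.7% lower). At 8 weeks 2 were higher and 3 lower, where 49.2% were called (23.6% higher, 25.6% lower). The fractions did not overlap for 7 of the 10 at 4 weeks, 4 higher and 3 lower in β-cells, against 53.1% of all tested genes (26.5% higher, 26.7% lower). At 8 weeks they did not overlap for 7 of the 10, 2 higher and 5 lower, against 64.9% (32.4% higher, 32.4% lower). The interaction called 3 of the 10, 1 with a positive and 2 with a negative value, and 5.13% of all tested genes (1.8% positive, 3.33% negative). These counts of calls between the fractions lie near the shares for all tested genes, and without replicate 1 of 8-week β-cells 3 of the 10 were called at 8 weeks. Both age comparisons share their libraries with the comparisons between the fractions and with the interaction.

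Markers of other cell types moved with age in the same libraries. In the non-β fraction 8 of 8 endothelial, 10 of 10 mesenchymal and 6 of 8 acinar and duct markers were called higher at 8 weeks, against 11.6% of all tested genes. Their summed levels went from 41.0 to 81.2, 112 to 314 and 40.5 to 87.7 CPM at 4 weeks to 309 to 838, 719 to 1110 and 196 to 660 CPM at 8 weeks. Of these markers, Tie1, Tek, Lum and Cftr passed the filter on low counts only with the help of the 8-week non-β libraries. Their tests are thus no independent support for a rise. Summed alpha-cell markers, mostly Gcg, were at 106000 to 121000 and 113000 to 136000 CPM in the non-β fraction. Of the 6 alpha-cell markers 0 were called higher and 2 lower with age there, against 4.8% of all tested genes called lower. In the β fraction 6 of 6 alpha-cell markers were called lower, against 9.35% of all tested genes. Their sums ran from 5630 to 9410 CPM at 4 weeks and from 1520 to 2570 CPM at 8 weeks. In that fraction 5 of 8 β-cell, 4 of 8 acinar and duct, 1 of 10 mesenchymal and 0 of 8 endothelial markers were called higher, against 8.59% of all tested genes. The sum of 18 leukocyte markers, of which 2 were high enough to be tested and 1 was called higher in each fraction, was at 51.9 to 53.6 and 70.9 to 77.7 CPM in the β fraction and at 8.76 to 13.4 and 15 to 21.3 CPM in the non-β fraction, mostly from Cd68. The part of any of these in the changes of the 10 transcripts was not tested.

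Ligands of these receptors were measured on the same scale. Of 10 interferon genes listed, 9, among them Ifnb1 and Ifng, had no counts in any of the 12 libraries, which allows up to 3 counts each or between 0.113 and 0.224 CPM per library, for counting error only. Of the 22 listed cytokine ligands, 9 were high enough to be tested, 6 were called higher with age in non-β-cells and 2 in β-cells, and 0 were called lower. Among those called in non-β-cells, Tnf and Il33 exceeded 1 CPM only in the 8-week non-β libraries and were tested through them alone. Il1b, which encodes interleukin-1β, lay at 2.64 to 5.92 CPM in β-cells and at 0 to 0.462 CPM in non-β-cells. It falls outside the rule for named genes and was chosen after its values were seen.

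Lif, the leukemia inhibitory factor, a gp130 ligand, measured 1.78, 2.26 and 3.35 CPM in 4-week β-cells and 6.66, 6.78 and 8.06 CPM in those of 8 weeks, and 7.96, 8.51 and 12.4 CPM against 78.9, 86.7 and 106 CPM in non-β-cells. The ages did not overlap in either fraction. The rise of Lif was 1.57 (adjusted p 0.00861) in β-cells and 3.27 (adjusted p 3.11e-07) in non-β-cells, and the interaction of -1.70 (adjusted p 0.0269) passed the threshold in 5 of 12 fits without a single library (adjusted p up to 0.106). Ctf1, which encodes the gp130 ligand cardiotrophin-1, rose in β-cells by 1.22 (adjusted p 0.0222), from 2.41 ± 0.580 to 5.58 ± 0.594 CPM. Its call held in 2 of 6 fits without a single library, with adjusted p-values up to 0.0973.

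In non-β-cells Il11, a gp130 cytokine, measured 8.49, 6.95 and 21.1 CPM at 4 weeks and 93.3, 105 and 173 CPM at 8 weeks, a rise of 3.50 (adjusted p 1.99e-05). Il1rn, which encodes the interleukin-1 receptor antagonist, measured 2.64, 0.294 and 1.53 CPM and then 42.4, 18.2 and 20.7 CPM (4.48, adjusted p 0.00119). Both were low in β-cells, at 5.72 ± 2.68 and 2.34 ± 0.596 CPM at 8 weeks. Tnf, the tumour necrosis factor gene, was at or below 0.0493 CPM in the 4-week non-β libraries. It measured 7.62, 5.23 and 4.83 CPM in those of 8 weeks. The alarmin gene Il33 went from 0.291 ± 0.257 to 3.25 ± 0.887 CPM in non-β-cells. Tnf and Il33 passed the filter on low counts only through the 8-week non-β libraries, so their calls are no independent support for a rise. Il6, the ligand of IL6RA, falls outside the rule for named genes and was chosen after its values were seen. It measured 4.70, 1.13 and 4.78 CPM at 4 weeks and 28.7, 25.9 and 47.9 CPM at 8 weeks in non-β-cells (3.43, adjusted p 0.000412), while β-cells held at most 2.57 CPM.

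**Figure D4:**
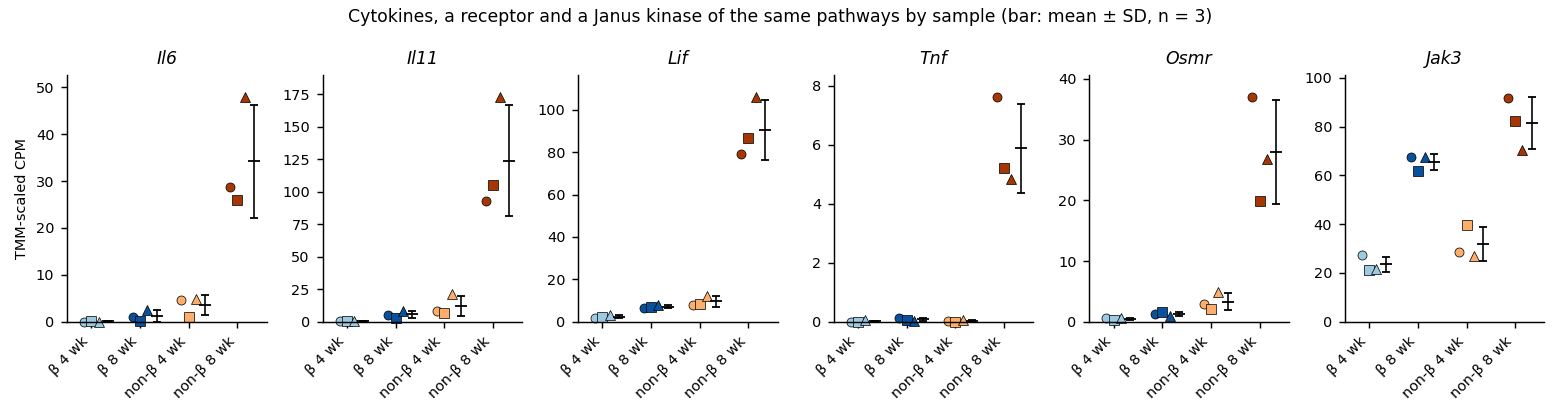
TMM-scaled CPM in each library of the ligands Il6, Il11, Lif and Tnf, of the oncostatin M receptor Osmr and of the kinase Jak3, on linear axes from 0, with bars for the mean ± SD of 3 libraries. The 4 ligands and Osmr stand high in the 8-week non-β libraries, where Tnf lay at 4.83 to 7.62 CPM, and Jak3 is higher at 8 weeks in both fractions.

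Of 6 tested gp130 family receptors, 0 were called in β-cells with age, and in non-β-cells 2 were higher and 1 lower. Osmr, the oncostatin M receptor chain, measured 2.98, 2.10 and 4.93 CPM in 4-week non-β-cells and 37.0, 19.9 and 26.8 CPM in those of 8 weeks (3.15, adjusted p 3.81e-05), against at most 1.58 CPM in β-cells. Lepr, the leptin receptor, went from 0.162 ± 0.149 to 1.41 ± 0.338 CPM in non-β-cells. It passed the filter on low counts only through the 8-week non-β libraries. Its call was lost in each of the 3 fits without a single library in which it could be tested. Cntfr, the ciliary neurotrophic factor receptor chain, fell in non-β-cells, with a log2 change of -0.62 (adjusted p 0.0252, up to 0.110 without a single library) from 14.7 ± 2.37 CPM, and stood at 134 ± 7.56 and 136 ± 9.99 CPM in β-cells. Il6st was not called in any comparison, with group means from 239 ± 79.5 to 291 ± 10.6 CPM.

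Of 6 tested interleukin-1 family receptors beside Il1r1, 1 was called with age in either fraction, the interleukin-33 receptor Il1rl1, which went from 1.01 ± 1.14 to 10.5 ± 1.66 CPM in non-β-cells (4.73, adjusted p 0.00161). Without non-β replicate 1 of 4 weeks, which had the lowest value at 0.0383 CPM, its change was 2.99. Outside the 8-week non-β libraries Il1rl1 exceeded 1 CPM only in non-β replicate 3 of 4 weeks, at 2.27 CPM. It passed the filter on low counts only with the help of the 8-week non-β libraries, so its call is no independent support for a rise. None of 3 tested interferon and interleukin-10 family receptors was called with age in either fraction. Of 11 tested other JAK-coupled receptors, 5 were higher in non-β-cells and 3 in β-cells, and 0 were lower. Prlr, the prolactin receptor, rose in β-cells by 1.09 (adjusted p 0.00312) from 52.7 ± 16.8 to 108 ± 10.4 CPM and stood at 1.56 ± 1.05 and 3.15 ± 0.860 CPM in non-β-cells. Il13ra1, a chain for interleukin-4 and interleukin-13, rose in both, by 0.92 (adjusted p 0.00114) and 1.35 (adjusted p 7.87e-05), and Csf2ra, a chain for GM-CSF, rose in β-cells by 0.67 (adjusted p 0.0148, up to 0.0575 without a single library).

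Il4ra, the interleukin-4 receptor chain, rose in non-β-cells by 1.80 (adjusted p 3.47e-05), from 12.5, 16.2 and 23.1 CPM to 59.8, 57.1 and 55.4 CPM. In β-cells it was at 13.5 ± 3.45 and 18.0 ± 2.21 CPM, and the interaction was -1.34 (adjusted p 0.0185, up to 0.0600 without a single library). Il2rg, the common γ-chain, and Csf2rb2, a β-chain of the interleukin-3 receptor, went from 0.226 ± 0.201 and 0.400 ± 0.346 CPM to 3.51 ± 0.734 and 4.08 ± 1.71 CPM in non-β-cells. Both passed the filter on low counts only through the 8-week non-β libraries, so their calls are no independent support for a rise.

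**Figure D5:**
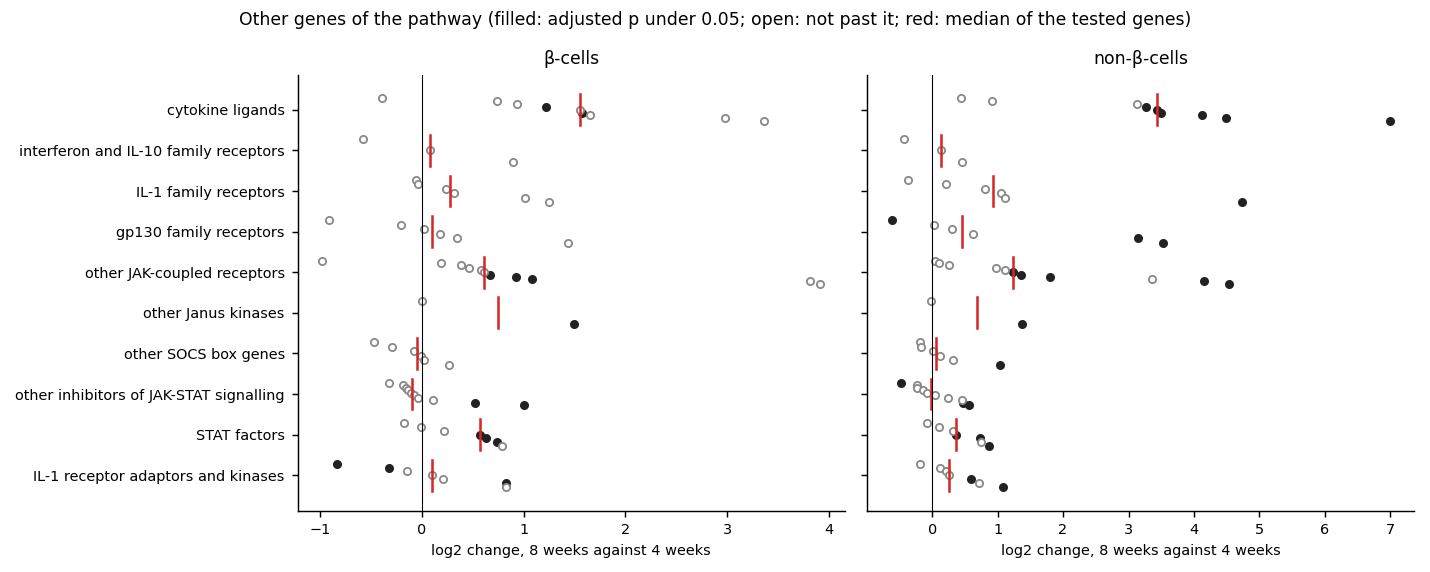
Log2 change from 4 to 8 weeks of the 67 tested genes in 10 lists of the pathway, for β-cells on the left and non-β-cells on the right, on axes of different range. Each point is a gene, filled with an adjusted p under 0.05, and the red line is the median of a list. Cytokine ligands have the highest medians, 1.55 for β-cells and 3.43 for non-β-cells, over 9 tested of 22 listed. In β-cells 7 of these 9 were not called, and the median is the value of Tnf, with means of 0.0153 and 0.0847 CPM at 4 and 8 weeks. Tnf and Il33 were tested only through the 8-week non-β libraries.

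Jak3, the kinase that pairs with the common γ-chain, was the Janus kinase that rose in both fractions. It measured 27.2, 21.4 and 21.8 CPM in 4-week β-cells and 67.4, 61.7 and 67.4 CPM in those of 8 weeks, a change of 1.49 (adjusted p 4.56e-05), and 28.6, 39.7 and 27.0 CPM against 91.8, 82.1 and 70.5 CPM in non-β-cells, a change of 1.38 (adjusted p 4.28e-05). The ages did not overlap in either fraction, and the interaction of 0.12 (adjusted p 0.838) was not called. Tyk2 was level, with group means from 33.2 ± 3.66 to 34 ± 8.64 CPM and age changes of 0.00 for β-cells and -0.02 for non-β-cells.

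Of the 6 other SOCS box genes, 1 was called with age in non-β-cells and 0 in β-cells. This was Cish, a STAT5-induced inhibitor, which rose by 1.04 (adjusted p 0.00101) from 15.6 ± 4.17 to 31.7 ± 3.14 CPM in non-β-cells and stood at 13.4 ± 0.248 and 9.70 ± 0.925 CPM in β-cells. Its interaction was -1.51 (adjusted p 0.00554), opposite in sign to that of Socs3. Of 10 other inhibitors of the pathway, 2 were higher in β-cells, and 2 were higher and 1 lower in non-β-cells. Ptpn1, a phosphatase of JAK2 and TYK2, rose by 0.52 (adjusted p 0.00444) in β-cells and 0.57 (adjusted p 0.00199) in non-β-cells. Usp18, which binds IFNAR2 and dampens its signalling, rose by 1.00 in β-cells (adjusted p 0.00568), from 8.40 ± 2.16 to 16.4 ± 1.95 CPM, and its change in non-β-cells was 0.45 (adjusted p 0.196). In non-β-cells the SUMO ligase Pias4 fell by 0.48 (adjusted p 0.0111, up to 0.0567 without a single library) and the adaptor Sh2b3 rose by 0.46 (adjusted p 0.0340, up to 0.202).

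Of 7 STAT factors, 3 were higher in β-cells, among them Stat2 by 0.74 (adjusted p 0.00674) and Stat3 by 0.57 (adjusted p 0.00204), and 3 in non-β-cells, among them Stat3 by 0.36 (adjusted p 0.0258) and Stat6 by 0.87 (adjusted p 0.000133). Stat3, the factor upstream of Socs3, measured 474, 444 and 368 CPM in 4-week β-cells and 621, 635 and 647 CPM in those of 8 weeks. Its call in non-β-cells was lost in each of the 6 fits without a single library (adjusted p up to 0.109). Stat6, the interleukin-4 factor, had an interaction of -0.65 (adjusted p 0.0310, up to 0.105 without a single library).

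Of 7 adaptors and kinases below IL1R1, 1 was higher and 2 were lower in β-cells, and 2 were higher in non-β-cells. Irak2, a kinase of the receptor complex, measured 19.9, 21.9 and 16.5 CPM in 4-week β-cells and 12.9, 10.8 and 9.35 CPM in those of 8 weeks, and 5.24, 7.78 and 5.13 CPM against 14.1, 10.0 and 12.5 CPM in non-β-cells. It fell by 0.84 in the former (adjusted p 0.00679) and rose by 1.08 in the latter (adjusted p 0.00642), with an interaction of -1.91 (adjusted p 0.00238) that held in all 12 fits without a single library. Myd88, the adaptor, rose in non-β-cells by 0.59 (adjusted p 0.00351). In β-cells the inhibitor Tollip fell by 0.32 (adjusted p 0.0382, up to 0.109 without a single library) and the kinase Irak4 rose by 0.83 (adjusted p 0.0296), a call that none of the 6 fits without a single library kept (adjusted p up to 0.0888).

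Likeness of pattern was measured as the root-mean-square difference of centred log2 CPM over the 12 libraries, against 10170 genes with a mean log2 CPM of at least 3. The gene nearest to Ifngr1 was Ifngr2, at 0.113 against a median of 0.407 over the genes compared, and Ifngr1 was the nearest to Ifngr2 after Zbtb17 (0.096) and Tapbp (0.1). Nearest to Socs3 were Rgs9 (0.240), Slitrk6 (0.254) and Frk (0.269), where the median was 1.08. Rgs9 followed the same order of groups, at 21.6 and 62.1 CPM in β-cells and 93.4 and 156 CPM in non-β-cells at 4 and 8 weeks. Il1r1 lay nearest to Grk5 (0.174), Jak1 to Cdh1 (0.110), Il6ra to Mtr (0.123), Jak2 to Met (0.076), Ifnar1 to Baz1a (0.066), Ifnar2 to Myl12b (0.1) and Socs1 to Ldlrad4 (0.531). The values describe these 12 libraries, which every gene shares, and carry no test.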

How the data were processed

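RNA-seq libraries of sorted NOD islet cells were analysed, 3 in each of 4 groups. Per the study's methods and labels, reversely stranded single-end reads were trimmed with fastp and quantified with kallisto against Ensembl transcripts of GRCm38. The authors deposited estimated counts per gene, which need not be whole, and these were rounded here. Versions of these tools, and whether kallisto was run with a strand option, are not given in the sources used here. Symbols were found for 51916 of 52962 identifiers in GENCODE M21, of the same build, and 15598 genes with over 1 CPM in at least 3 libraries were tested. One limma-voom model (R 4.3.3, limma 3.58.1, edgeR 4.0.16 for TMM) of 4 group means gave two-sided tests of each age and fraction comparison and of the interaction, and was tested on simulated data. Plotted and printed CPM are TMM-scaled, and the likeness measure used log2 CPM with a prior count of 2. Alternatives included edgeR, DESeq2 1.42.0, other scalings and filters, sample weights and fits without single libraries. At 13754913 to 27040436 counts per library, low counts limit the precision mainly for Socs1, beside the spread between its replicates. No replicates were near-identical.

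The members and the 10 pathway lists of 100 genes, of which 67 were tested, were chosen with earlier results of these data known. Beside the members and 6 further pathway genes, a list gene is named if called in an age comparison or the interaction, at most 4 per list and direction by size of change. Some genes that this rule or the marker lists would name are not reported here.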

Additional observations from a re-analysis of the deposited data

Results flagged for a closer look

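For 3 of the 10 genes the change from 4 to 8 weeks differed between the fractions by the test of the interaction itself, which subtracts the log2 change of non-β-cells from that of β-cells. The same test called 5.13% of all tested genes. The interaction was -0.80 for Ifngr1 (adjusted p 0.0123, limma-voom with Benjamini-Hochberg adjustment) and -0.73 for Ifngr2 (adjusted p 0.0149), with all 3 libraries of 8 weeks below all 3 of 4 weeks in β-cells and above them in non-β-cells for both. It was 0.91 for Socs3 (adjusted p 0.0194), whose 8-week libraries were the higher ones in both fractions. The interaction of Socs3 passed the threshold in 8 of 12 fits without a single library.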

How the results depend on the processing

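In fits other than those without a single library, 490 alternative values for the 10 genes kept their direction and their side of the threshold, 29 passed it and 3 lost it. The 3 lost calls were those of Ifngr1 between the fractions at 8 weeks, of Ifngr2 in non-β-cells and of Jak1 in non-β-cells, given above. The 8 that changed sign had not been called: Ifnar1 in non-β-cells (-0.0524), Ifnar2 (0.0070) and Il1r1 (-0.0025) in β-cells, Jak2 in non-β-cells (-0.11) and Socs1 between the fractions at 4 weeks (-0.18) with sample quality weights, and Ifnar2 (0.0384) and Il1r1 (-0.0306) in β-cells and Jak2 in non-β-cells (-0.0621) without both 4-week libraries numbered 3. Sample quality weights called 2 of the 10 in β-cells with age and 5 in the interaction, which also held 5 without those libraries. With 2-fold required, 0 were called in non-β-cells with age, 2 and 1 between the fractions at 4 and 8 weeks, and 0 in the interaction. Over all genes, weights called 5382 in β-cells with age and 2384 in the interaction, against 2799 and 800. The 2-fold requirement left 867 and 1389 genes with age in β-cells and non-β-cells, 3464 and 3742 between the fractions at 4 and 8 weeks, and 469 in the interaction. The interaction called 1562 genes with DESeq2, 1468 without the libraries numbered 3 and 1246 at an adjusted p under 0.1. The causes were not tested.

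Without single libraries, the number of the 10 called was 1 in β-cells with age in every fit, 3 to 5 in non-β-cells, 6 between the fractions at 4 weeks in every fit, 3 to 5 at 8 weeks and 2 to 4 in the interaction. Over all genes it ranged from 1695 to 2491 and 1810 to 2328 with age, from 6485 to 7808 and 6214 to 6796 between the fractions, and from 455 to 979 in the interaction. Counts under 1 in 1.5 of the full count came without β-cell replicate 1, 2 or 3 of 8 weeks for β-cells with age (1734, 1697 and 1695). For the interaction they came without these (504, 455 and 463) and without non-β replicate 1 of 4 weeks (510) or 3 of 8 weeks (496). Values that changed sign, none of them called, ranged from -0.12 to 0.17 (Ifnar1 in non-β-cells), -0.23 to 0.0365 (Ifnar1, interaction), -0.27 to 0.0366 (Ifnar2 in β-cells), -0.28 to 0.0017 (Ifnar2 between the fractions at 4 weeks), -0.0303 to 0.17 (Il1r1 in β-cells), -0.16 to 0.10, -0.0667 to 0.15 and -0.22 to 0.0549 (Jak2 in β-cells, in non-β-cells and in the interaction), and -0.28 to 0.93 and -0.57 to 0.65 (Socs1 in β-cells and between the fractions at 4 weeks).

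With the replicate block, 1 of the 10 was called in β-cells with age and 7 in non-β-cells, against 3294 and 3057 of the 15598 tested genes. Between the fractions 6 and 7 of the 10 were called at 4 and 8 weeks, against 9158 and 9127 of all tested genes. In the interaction 5 of the 10 were called, against 2080 of all. The block called the interactions of Il1r1 (-0.72, adjusted p 0.000555) and Il6ra (0.63, adjusted p 0.0168) and, in non-β-cells with age, Il6ra and Socs1, and between the fractions at 8 weeks Ifnar1 and Socs1. Over all tested genes, deviations of same-numbered samples correlated at 0.08, 0.133 and 0.306 between the fractions at 4 weeks and at 0.018, 0.049 and 0.008 at 8 weeks, so not every pair exceeded 0.1 and the block was kept as an alternative. Over the 10280 genes with a mean log2 CPM of at least 3 they correlated at 0.292, 0.429 and 0.673 at 4 weeks, where every pair exceeded 0.1, and at 0.125, 0.164 and -0.071 at 8 weeks. Low counts limit Socs1, with 12 to 83 per library, beside the spread between its replicates.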
